A study of Mus musculus with 2 samples.

Results

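Integrins are cell-surface receptors made of an α and a β subunit, through which leukocytes hold on to endothelium, to each other and to the extracellular matrix. The 10 subunit genes described here were chosen by symbol, as the integrin subunits best known on leukocytes: Itgam, Itgal, Itgax and Itgb2 of the β2 family, Itgb1 with its α partners Itga4, Itga5 and Itga6, and the β subunits Itgb3 and Itgb7. They are 10 of the 24421 gene symbols with a deposited value, and all 10 were found. RNA was measured in granulocyte-monocyte progenitors (GMPs), the bone marrow (BM) cells that give rise to neutrophils and monocytes, sorted by flow cytometry directly from the BM of female mice. NTB-GMP is 1 library from non-tumor-bearing mice, and 4T1-GMP is 1 library from mice that carried tumors of the mouse mammary carcinoma line 4T1, implanted orthotopically. The labels give all of these mice an F1 H-2b/d background, semi-syngeneic to the tumor, whereas the methods of the study describe young adult BALB/c and C57BL/6 females. How many mice gave the cells of a library, and how long they carried tumors, is not given in the sources used here.

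An integrin reaches the cell surface as a pair, so the α subunits of a family share the available β subunit. Most integrins on a resting leukocyte are inactive, and signals from chemokine receptors lead talin and kindlin to the β tail, which switches the receptor to its binding form. In the BM, α4β1 and α5β1 hold progenitors to VCAM-1 and fibronectin in the niche, and β2 integrins become prominent on maturing myeloid cells. The product of Itgam, CD11b, is also used, together with Gr-1 or with Ly6C and Ly6G, to gate mouse myeloid-derived suppressor cells. The comparison asks which subunits differ between GMPs from tumor-bearing and from control mice.

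There were no replicates, so no test between the groups was possible, and a difference between these libraries cannot be told apart from a difference between mice, sorts or preparations. The values are RPKM, reads scaled to the length of the gene and to the size of the library, a per-length scale on which levels of different genes can be compared. Whole reads behind the RPKM could be recovered, and 4T1-GMP was 2.95 times as deep as NTB-GMP by the library sizes used for the RPKM (30016263 against 10180365). Intervals are 95% Clopper-Pearson intervals on these reads. They cover counting error only, and not variation between mice, sorts or preparations. Reads amplified by PCR are not independent molecules, so the intervals can be too narrow even for counting error. Differences are log2 ratios of (RPKM + 0.1) in 4T1-GMP over NTB-GMP. The pseudocount of 0.1 understates the change of low genes, and the intervals, which are on the reads, do not include it. Among the 10378 genes with a mean of at least 1 RPKM, the median log2 ratio was 0.05 and 54.7% were higher in 4T1-GMP. Reads of the ribosomal RNA precursor Rn45s made up 17.0% of the NTB-GMP library and 6.98% of the 4T1-GMP library. Leaving them out shifts log2 ratios by about -0.16, after which 39.2% of the genes were higher.

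The cells carried the markers of their label. All 9 GMP and primary granule markers were at 28.6 RPKM or more in both libraries, among them Kit at 78.5 and 49.1 RPKM, Cd34 at 154 and 59.4 RPKM and Mpo at 5163 and 5625 RPKM in NTB-GMP and 4T1-GMP. These markers were not all alike between the libraries. Of the 9, 4 were higher at least 1.5-fold in 4T1-GMP: Elane, Prtn3, Ctsg and Ms4a3 (log2 ratios 0.66, 1.24, 1.11 and 1.35). Another 3 were lower at least 1.5-fold: Kit, Cd34 and Fcgr3 (log2 ratios -0.67, -1.37 and -0.89). Of all genes with a mean of at least 1 RPKM, 9.8% were higher and 11.6% were lower by that much. Markers of other cells differed as well. The 12 genes of neutrophil secondary granules and maturation were all at least 2-fold higher in 4T1-GMP, against 3.25% of all genes with that mean. Their summed level was 514 RPKM in NTB-GMP compared with 4072 RPKM in 4T1-GMP. The 13 monocyte and dendritic markers summed to 225 and 85.5 RPKM, the 6 basophil and mast cell markers to 455 and 188 RPKM, and the 9 megakaryocyte and platelet markers to 3.65 and 1.03 RPKM. In bulk samples, fewer cells of a type and less RNA per cell cannot be told apart. In the sort that the study describes for cultured GMPs, lineage-positive cells were depleted with antibodies to Ter-119, Gr-1, B220 and CD3. The other cells were stained for c-Kit and Sca-1, among further markers that did not include CD41, the product of the integrin gene Itga2b. For gating, the methods refer to a figure of BM flow cytometry. The GMPs defined there are without CD41, Ly6C and CD115. The gate of these libraries is not given in the sources used here.

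The letters upstream of 3 subunit genes that differed between the libraries are shown. Itgam was higher in 4T1-GMP, and Itga4 and Itgb7, which together encode the gut-homing receptor α4β7, were both lower. RefSeq promoter windows (GRCm38.p6) were matched by symbol for 6 of the 10 members (Itgam, Itgax, Itga4, Itga5, Itgb1 and Itgb7). No window was matched for Itgb2, Itgal and Itgb3, which also differed, or for Itga6. Each window was read over the 250 bases before the start, 5′ to 3′ on the strand of the gene. Capitals mark matches, on either strand, to the core that PU.1 binds (GAGGAA), to a RUNX core (TGTGGT) and to a GC box (GGGCGG). The windows shown are chr7:128062390-128062639 (+ strand) for Itgam, chr2:79255176-79255425 (+ strand) for Itga4 and chr15:102231945-102232185 (- strand) for Itgb7, the last without 9 bases that lie in an exon.
Itgam: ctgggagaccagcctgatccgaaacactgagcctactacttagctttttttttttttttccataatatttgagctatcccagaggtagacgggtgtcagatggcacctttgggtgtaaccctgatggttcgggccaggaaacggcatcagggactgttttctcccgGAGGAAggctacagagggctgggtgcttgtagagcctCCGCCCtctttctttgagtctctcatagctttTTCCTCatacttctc
Itga4: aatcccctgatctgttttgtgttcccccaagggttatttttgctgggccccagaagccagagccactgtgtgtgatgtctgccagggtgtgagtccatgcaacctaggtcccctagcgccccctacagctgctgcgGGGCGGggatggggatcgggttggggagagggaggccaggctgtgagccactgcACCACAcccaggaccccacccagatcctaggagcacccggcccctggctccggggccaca
Itgb7: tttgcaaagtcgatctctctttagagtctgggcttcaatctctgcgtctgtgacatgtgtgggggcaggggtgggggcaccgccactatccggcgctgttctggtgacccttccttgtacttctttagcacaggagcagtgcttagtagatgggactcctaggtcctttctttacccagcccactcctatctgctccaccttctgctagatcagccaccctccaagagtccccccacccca

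PU.1 is a transcription factor that myeloid cells need for their development. The Itgam window held 2 PU.1-type cores, beginning 84 bases and 15 bases before the start and lying on opposite strands, with a GC box 47 bases before the start between them. The Itga4 window held a GC box 114 bases and a RUNX core 60 bases before the start. The Itgb7 window and the Itgax window held none of these letters. Of the other windows, that of Itga5 held a PU.1-type core and 2 GC boxes, and that of Itgb1 held 1 of each. No matches overlapped. Of 32851 promoter windows of the same length, 23.3% held GAGGAA, 14.0% held TGTGGT and 32.7% held GGGCGG on either strand. Such matches describe the letters and say nothing on what was bound in these cells.

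The members did not move together. Itgb2 and Itgam, the subunits of Mac-1 (αMβ2), were higher in 4T1-GMP, with log2 ratios of 1.05 and 0.91. Itgb7, Itgb3, Itgal and Itga4 were lower, with log2 ratios of -2.25, -1.66, -0.72 and -0.72. Itgb1, Itga6 and Itga5 lay near 0, and the sign of Itga6 flips with the scaling. Of the 9 members with a mean of at least 1 RPKM, 2 were higher at least 1.5-fold, whereas 9.8% of all tested genes were. Lower at least 1.5-fold were 4 of the 9, against 11.6% of all tested genes. At a 2-fold limit, 1 member was higher (Itgb2) and 2 were lower (Itgb3 and Itgb7), against 3.25% and 4.92% of all tested genes. The call of Itgb2 at 2-fold depends on the scaling. Its log2 ratio was 0.89 when Rn45s was not counted in the library sizes. The median log2 ratio of the 9 members was -0.18, compared with 0.05 for all tested genes. The remaining member, Itgax, was under 1 RPKM in both libraries.

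**Figure D1:**
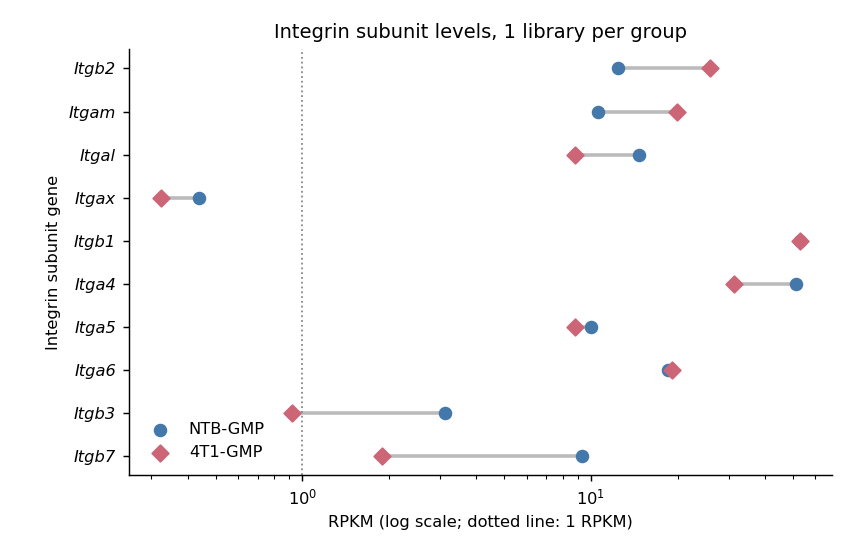
RPKM on a log axis for the 10 integrin subunit genes, with a circle for NTB-GMP and a diamond for 4T1-GMP (1 library each). Itgb2 and Itgam lie to the right in 4T1-GMP, Itgb7 and Itgb3 lie furthest to the left, and the symbols of Itgb1 coincide at 53.1 RPKM.

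**Figure D2:**
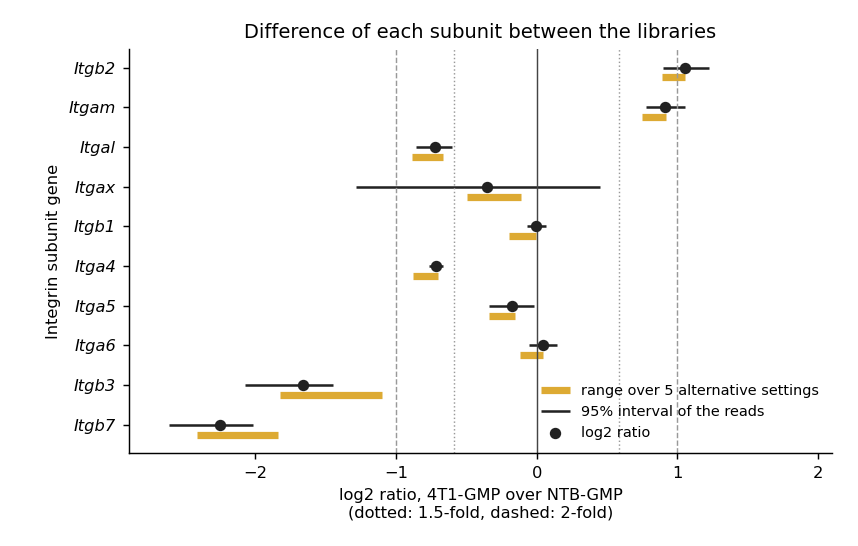
Log2 ratio of 4T1-GMP over NTB-GMP for each subunit (points) with the 95% counting interval of its reads (black lines) and the range over 5 alternative settings of pseudocount and scaling (yellow bars). The intervals of Itgb2 and Itgam lie above 0, those of Itgal, Itga4, Itga5, Itgb3 and Itgb7 below it, and those of Itgax, Itgb1 and Itga6 include it.

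The β2 family is found on leukocytes alone. Itgb2 encodes the common β chain (CD18) without which none of the family reaches the surface. The level was 12.5 RPKM from 363 reads in NTB-GMP, compared with 25.9 RPKM from 2227 reads in 4T1-GMP, and the log2 ratio was 1.05 (interval 0.90 to 1.22). Its ratio was above that of 97.1% of the tested genes. Itgb2 lies on chromosome 10 from 77530252 to 77565708 of GRCm38.

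Itgam encodes αM (CD11b), which with Itgb2 forms Mac-1, the receptor for complement iC3b, fibrinogen and ICAM-1 on neutrophils and monocytes. NTB-GMP gave 503 reads (10.6 RPKM) and 4T1-GMP gave 2800 reads (19.9 RPKM), so the log2 ratio was 0.91 (interval 0.78 to 1.06). Its position among the tested genes (above 96.2%) was close to that of Itgb2. Both subunits of Mac-1 were thus higher in the same library and by a like amount. The level of Itgb2 relative to Itgam was 1.18 in NTB-GMP and 1.30 in 4T1-GMP, and the interval of the change between these ratios, 0.95-fold to 1.28-fold, includes 1.

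Itgal encodes αL (CD11a) of LFA-1, which binds ICAMs and is carried by most leukocytes, lymphocytes above all. The level was 14.6 RPKM from 779 reads in NTB-GMP, compared with 8.84 RPKM from 1386 reads in 4T1-GMP, and the log2 ratio was -0.72 (interval -0.86 to -0.60). Itgal was therefore lower in the library in which its partner Itgb2 was higher. The level of Itgam relative to Itgal was 0.72 in NTB-GMP (interval 0.64 to 0.81) and 2.25 in 4T1-GMP (interval 2.11 to 2.41). The α subunit with the higher level was Itgal in NTB-GMP and Itgam in 4T1-GMP. This relation between genes of the same library changed 3.13-fold (interval 2.74 to 3.57) and does not depend on the library sizes.

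Itgax encodes αX (CD11c), which is used as a marker of dendritic cells. NTB-GMP gave 18 reads (0.44 RPKM) and 4T1-GMP gave 39 reads (0.32 RPKM). Its interval, a log2 ratio from -1.28 to 0.45, includes 0, so a difference was not detectable at this depth. Itgad, which encodes another β2 partner, αD, was also scarce, with 0.15 RPKM in NTB-GMP compared with 0.10 RPKM in 4T1-GMP. Itgam, Itgax and Itgad lie in a row on chromosome 7. Itgam spans 128062640 to 128118491, Itgax begins 11.1 kb after it and spans 128129547 to 128150657, and Itgad begins 3.72 kb after Itgax. Itgal is on the same chromosome from 127296260 to 127335138, 728 kb before Itgam. The neighbors thus differed in level, with Itgam 10.6 and 19.9 RPKM beside less than 1 RPKM for each of Itgax and Itgad. The GENCODE M21 annotation also places Gm49368 over Itgam on the same strand, and how reads shared by overlapping or related genes were counted is not given in the sources used here.

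The α subunits of the β2 family summed to 25.8 RPKM in NTB-GMP compared with 29.2 RPKM in 4T1-GMP, a small difference beside that of Itgb2. Itgam made up 40.9% of that sum in NTB-GMP and 68.3% in 4T1-GMP, and Itgal 56.8% and 30.3%. The level of Itgb2 was 0.48 times the summed α level in NTB-GMP and 0.89 times in 4T1-GMP. Beside these values, the 12 neutrophil granule and maturation markers were all higher and 9 of the 10 monocyte and dendritic markers with a mean of at least 1 RPKM were lower by at least 1.5-fold in 4T1-GMP. Of all tested genes, 9.8% were higher and 11.6% were lower by that much. The part of other cells in the β2 values was not tested.

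**Figure D3:**
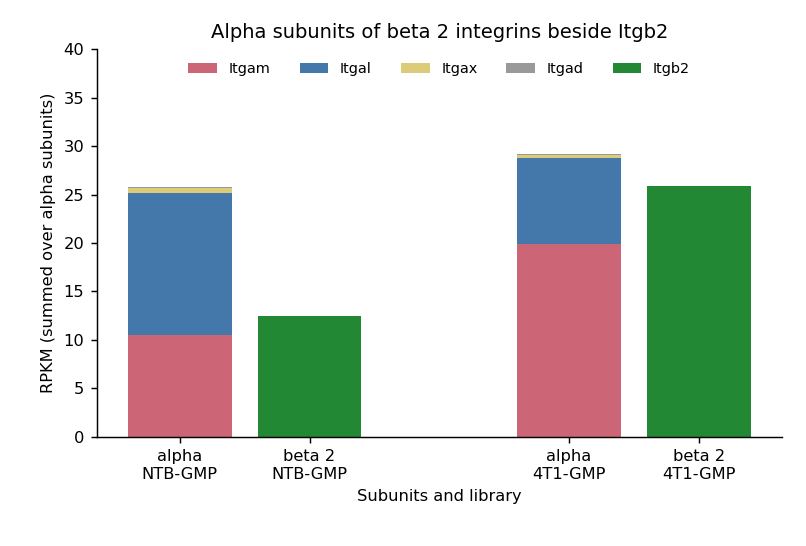
Level in RPKM of the α subunits of β2 integrins, stacked, beside the level of Itgb2, in NTB-GMP and 4T1-GMP (1 library each). The stacks are of similar height, 25.8 and 29.2 RPKM, while the share of Itgam is 40.9% and 68.3%.

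The β1 family binds matrix and VCAM-1 and is carried by most cell types. Itgb1 encodes its β chain (CD29) and had the highest level of the members in both libraries. NTB-GMP gave 2269 reads (53.1 RPKM) and 4T1-GMP gave 6679 reads (53.1 RPKM), so the log2 ratio was -0.0024 (interval -0.07 to 0.07). The counting error thus limits a difference in Itgb1 to a small one in either direction on the scale of the authors, and the other scalings lowered it to between -0.09 and -0.19. Itgb1 lies on chromosome 8 from 128685654 to 128733200.

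Itga4 encodes α4 (CD49d), which pairs with β1 to form VLA-4, the receptor by which progenitors hold on to VCAM-1, or with β7. The level was 51.5 RPKM from 5154 reads in NTB-GMP, compared with 31.3 RPKM from 9239 reads in 4T1-GMP, and the log2 ratio was -0.72 (interval -0.77 to -0.67). Set against Itgb1 within each library, the level of Itga4 was 0.97 in NTB-GMP (interval 0.92 to 1.02) and 0.59 in 4T1-GMP (interval 0.57 to 0.61). Itga4 and Itgal differed by nearly the same factor. The level of Itgal relative to Itga4 was 0.28 in both libraries, and the interval of the change, 0.90-fold to 1.09-fold, includes 1. Itga4 lies on chromosome 2 from 79255426 to 79333123 and overlaps Cerkl on the opposite strand, which was listed at 1.23 and 0.70 RPKM. Whether the counting used strand is not given in the sources used here.

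Itga5 encodes α5 (CD49e) of the fibronectin receptor VLA-5. NTB-GMP gave 445 reads (10.01 RPKM) and 4T1-GMP gave 1158 reads (8.83 RPKM), so the log2 ratio was -0.18 (interval -0.34 to -0.02). The difference was small and was exceeded in the same direction by 30.4% of the tested genes. Itga6 encodes α6 (CD49f), which binds laminin as a partner of β1 or β4. The level was 18.5 RPKM from 1133 reads in NTB-GMP, compared with 19.1 RPKM from 3443 reads in 4T1-GMP, and the log2 ratio was 0.04 (interval -0.05 to 0.14), which was -0.12 without Rn45s. Relative to Itgb1, the change of Itga6 had an interval from 0.95-fold to 1.12-fold and that of Itga5 from 0.78-fold to 1.00-fold. Of the 3 α partners of Itgb1, only Itga4 passed 1.5-fold. Itga5 lies on chromosome 15 from 103344286 to 103366763 and Itga6 on chromosome 2 from 71745616 to 71858416.

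The largest differences were in Itgb7 and Itgb3. Itgb7 encodes β7, which joins α4 in the receptor for MAdCAM-1 or αE in the receptor for E-cadherin, and it is high on gut-homing lymphocytes and on mast cell progenitors. NTB-GMP gave 254 reads (9.33 RPKM) and 4T1-GMP gave 151 reads (1.88 RPKM), so the log2 ratio was -2.25 (interval -2.61 to -2.01). Only 0.86% of the tested genes had a lower ratio. Its partner Itgae was near 0, with 0.06 RPKM in NTB-GMP compared with 0.07 RPKM in 4T1-GMP, so that Itga4 was the partner with a level above 1 RPKM. The level of Itga4 relative to Itgb7 was 5.52 in NTB-GMP and 16.6 in 4T1-GMP, a change of 3.02-fold (interval 2.45 to 3.72). Both genes of α4β7 were therefore lower in 4T1-GMP, Itgb7 more than Itga4. Itgb7 lies on chromosome 15 from 102215995 to 102231944.

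Itgb3 encodes β3, which joins αIIb in the fibrinogen receptor of platelets and αV in the vitronectin receptor. The level was 3.13 RPKM from 184 reads in NTB-GMP, compared with 0.92 RPKM from 160 reads in 4T1-GMP, and the log2 ratio was -1.66 (interval -2.08 to -1.45). Its partners went in different directions. Itga2b, which encodes αIIb (CD41), had 12.8 RPKM in NTB-GMP compared with 4.43 RPKM in 4T1-GMP, a log2 ratio of -1.51 (interval -1.73 to -1.34). Itgav, which encodes αV, had 6.72 and 9.20 RPKM, a log2 ratio of 0.45 (interval 0.31 to 0.60). The level of Itga2b relative to Itgb3 changed 1.17-fold, with an interval (0.91 to 1.51) that includes 1, and that of Itgav relative to Itgb3 changed 4.64-fold (interval 3.65 to 5.90). Itgb3 lies on chromosome 11 from 104608000 to 104670476.

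The summed markers of basophils and mast cells, megakaryocytes and platelets, erythroid cells and stem and multipotent cells were lower in the same library as Itgb7 and Itgb3. Of the 6 basophil and mast cell markers, 5 were at least 1.5-fold lower in 4T1-GMP, against 11.6% of all tested genes. Among the 6, Gata2 was at 29.5 and 5.14 RPKM, Cpa3 at 103 and 35.1 RPKM, and Fcer1a at 18.6 and 14.2 RPKM. The only megakaryocyte and platelet marker with a mean of at least 1 RPKM was Gp9, at 1.57 and 0.45 RPKM, while Pf4 was at 0.33 and 0.45 RPKM and Treml1 was at 0 in both libraries. Mature T and B cell markers were low: the T cell list summed to 0.37 and 0.98 RPKM, and the 6 B cell markers were each at 0.28 RPKM or less except Cd79b, at 14.7 and 12.4 RPKM. The 6 erythroid markers summed to 7.43 and 1.22 RPKM, with Gata1 at 4.23 and 0.81 RPKM and the globin genes Hba-a1 and Hbb-bt at 0 in both libraries. The 6 stem and multipotent markers summed to 22.0 and 7.84 RPKM, and Meis1, at 17.1 and 4.73 RPKM, made up most of both sums. Hlf and Mecom were also lower in 4T1-GMP. Procr (0.20 and 0.40 RPKM), Slamf1 (0.07 and 0.09 RPKM) and Ly6a (0 and 0.27 RPKM) were higher, all at few reads. The part of these cell types in the values of Itgb7, Itgb3 and Itga2b was not tested.

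Within a library, the members spanned a wide range of levels. In NTB-GMP the order was Itgb1, Itga4, Itga6, Itgal, Itgb2, Itgam, Itga5, Itgb7, Itgb3 and Itgax. Neighbors whose ratio had an interval that includes 1 were Itgb1 and Itga4, Itgam and Itga5, and Itga5 and Itgb7. In 4T1-GMP the order was Itgb1, Itga4, Itgb2, Itgam, Itga6, Itgal, Itga5, Itgb7, Itgb3 and Itgax. There the neighbors not told apart were Itgam and Itga6 and Itgal and Itga5. Itgb2 was at rank 5 in NTB-GMP and rank 3 in 4T1-GMP, and Itgam at ranks 6 and 4. These orders rest on the gene lengths used by the authors. The exons that GENCODE M21 gives the members cover 0.973 to 1.5 times those lengths. The 4 genes of the β2 family summed to 38.1 RPKM in NTB-GMP compared with 55.0 RPKM in 4T1-GMP, whereas the 4 genes of the β1 family summed to 133 and 112 RPKM.

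**Figure D4:**
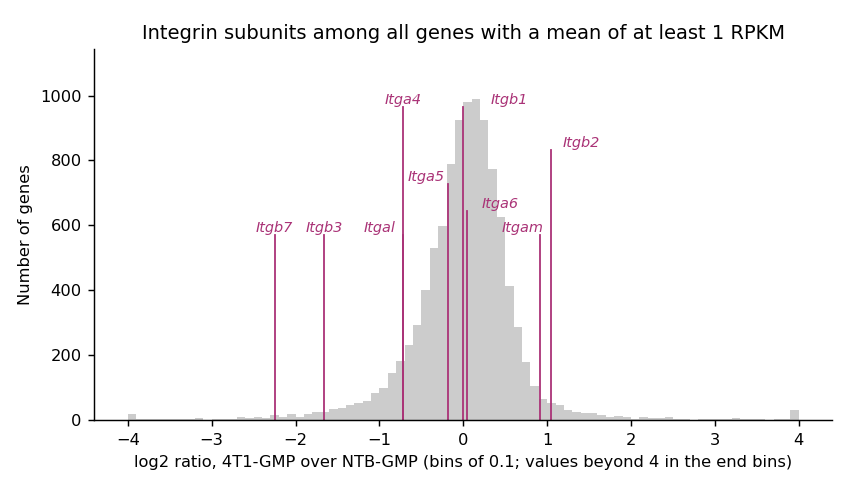
Number of genes by log2 ratio of 4T1-GMP over NTB-GMP, for the 10378 genes with a mean of at least 1 RPKM, with lines at the 9 members that passed this limit. Itgb2 and Itgam lie in the upper tail, Itgb7 and Itgb3 in the lower tail, and Itgb1 and Itga6 near the center of the distribution.

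The other genes of the integrin pathway were grouped by role. Of 91 genes in 6 lists, 52 had a mean of at least 1 RPKM, of which 3 were higher and 8 were lower at least 1.5-fold, against 9.8% and 11.6% of all tested genes. Without Rn45s or with median centring, 2 were higher and 10 lower, while 17.0% and 14.3% of all tested genes were lower by that much. With quantile normalization, 2 were higher and 7 lower. A pseudocount of 1 gave 3 higher and 7 lower. The shares of all tested genes lower in these settings were 10.3% and 8.8%. The median log2 ratio of the 52 pathway genes was 0.07, which was below 0 under other scalings. Of the 17 other integrin subunits, 3 had a mean of at least 1 RPKM: Itga2b, Itgav and Itgb5, the last at 1.62 RPKM in NTB-GMP compared with 1.09 RPKM in 4T1-GMP. Itgb2l, a close relative of Itgb2 on chromosome 16, was nearly silent in NTB-GMP, with 0.19 RPKM (5 reads), and had 1.11 RPKM (87 reads) in 4T1-GMP, a log2 ratio of 2.07. The interval of its reads was wide, 1.28 to 4.22, and its level in 4T1-GMP was 0.043 times that of Itgb2.

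The machinery that switches integrins on was well expressed in both libraries. Among the 10 activator genes with a mean of at least 1 RPKM, Tln1 (talin) had 123 RPKM in NTB-GMP compared with 137 RPKM in 4T1-GMP. Fermt3, the kindlin of blood cells, had 89.3 and 106 RPKM, and Rap1b, the small GTPase upstream of talin, had 67.8 and 92.2 RPKM. None of the 10 was higher at least 1.5-fold, and 1 was lower, the adaptor gene Fyb, at 6.98 and 3.25 RPKM (log2 ratio -1.08, interval -1.30 to -0.90). Among all tested genes, 9.8% were higher and 11.6% were lower at least 1.5-fold. The activator gene Apbb1ip, at 37.9 and 25.7 RPKM (log2 ratio -0.56), lay just within 1.5-fold. It passed that limit without Rn45s (-0.72), with median centring (-0.65) and with quantile normalization (-0.69). The 6 genes that restrain integrins were all within 1.5-fold, with log2 ratios from -0.29 to 0.36, such as Flna (filamin A) at 130 and 142 RPKM.

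Of the 18 signaling genes with a mean of at least 1 RPKM, 2 were higher and 2 were lower at least 1.5-fold. The shares among all tested genes were similar, 9.8% and 11.6%. The kinase gene Fgr was nearly silent in NTB-GMP, with 0.26 RPKM (9 reads), and had 5.66 RPKM (568 reads) in 4T1-GMP, a log2 ratio of 3.98 (interval 3.48 to 5.56). Fgr encodes a Src family kinase that acts behind β2 integrins in neutrophils and monocytes. Fyn, a member of the same kinase family known best from T cells, was lower, at 6.08 and 1.54 RPKM (log2 ratio -1.92, interval -2.28 to -1.69). The other genes past 1.5-fold were Vcl (vinculin), at 11.9 and 20.2 RPKM, and Vav2, at 4.88 and 2.89 RPKM. The call of Vav2 is lost with quantile normalization, where its log2 ratio was -0.57. The kinase gene Syk, which links integrins to calcium and oxidant responses, had 44.3 and 44.4 RPKM.

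Of 24 ligand genes, 7 had a mean of at least 1 RPKM and 7 were listed at 0 in both libraries. C3, whose fragment iC3b is bound by Mac-1, had 37.1 RPKM in NTB-GMP compared with 58.4 RPKM in 4T1-GMP (log2 ratio 0.65). Its call is lost under the other scalings, with log2 ratios of 0.49 without Rn45s, 0.56 with median centring and 0.46 with quantile normalization. Lower were Cdh1, which encodes E-cadherin, at 5.36 and 1.04 RPKM (log2 ratio -2.26), Icam4 at 3.03 and 0.81 RPKM (-1.79) and Lamc1 at 3.25 and 1.99 RPKM (-0.68). The call of Lamc1 at 1.5-fold is lost with a pseudocount of 1 (-0.50) and with quantile normalization (-0.46). Vcam1 had 16.7 and 19.0 RPKM and Icam1 had 4.80 and 5.14 RPKM. The 8 genes of tetraspanins and CD47, membrane partners of integrins, had a median log2 ratio of 0.03. Of these, 1 passed 1.5-fold: Cd53, at 39.3 and 24.5 RPKM (log2 ratio -0.68). Among all tested genes, 9.8% were higher and 11.6% were lower at least 1.5-fold.

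**Figure D5:**
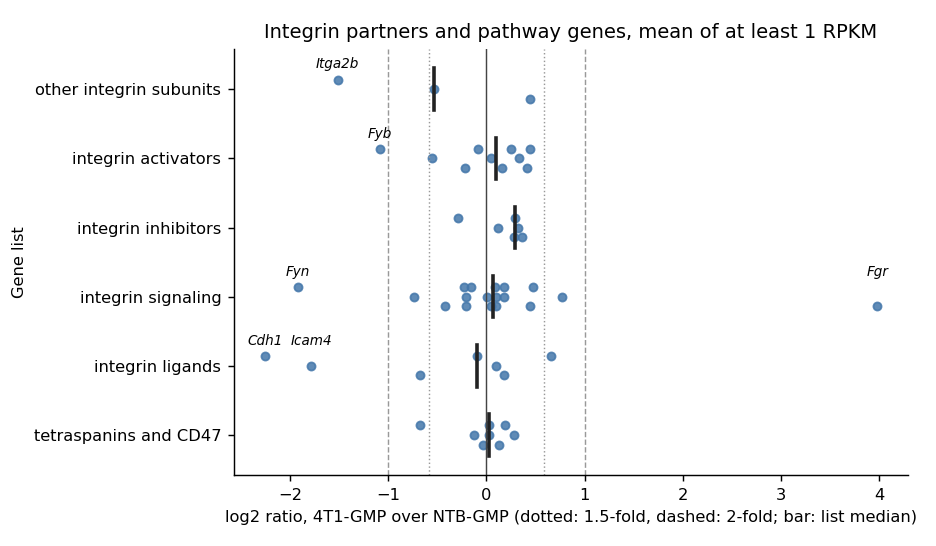
Log2 ratio of 4T1-GMP over NTB-GMP for 52 integrin pathway genes in 6 lists (points, with the list median as a bar), with names for genes past 2-fold. Most points lie within 1.5-fold, and Fgr, at 3.98, lies furthest from 0.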

How the data were processed

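Total RNA of sorted GMPs was sequenced, with 1 library per group. The authors deposited RPKM at full precision, with 1 value per gene symbol. The submitters' processing notes name mm10, CASAVA 1.8.2, cutadapt 1.2.1, TopHat2 2.0.13, Picard 1.97, HTSeq 0.6.1 and edgeR 3.12.1, with no roles; gene lengths and annotation are not given in the sources used here.

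Ratios of the RPKM were whole-read ratios for 13181 of the 13182 genes above 0 in both libraries (relative tolerance 1e-11), which gave the reads in lowest terms and the library sizes, normalization included. Reads are therefore lower bounds. On simulated data for 12859 genes of this comparison, all ratios and 84.8% of count pairs were recovered. Log2 ratios used a pseudocount of 0.1 and genes with a mean of at least 1 RPKM. No test was run.

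The members and lists were chosen with earlier results of these data known. Named were all members, their nearest relatives and partners, and list genes past 2-fold (up to 4 per direction and list); others were chosen after their values were seen. 1 signaling gene was left out of the pathway lists and is not reported here. Alternatives were pseudocounts of 1 and 0.01, Rn45s left out of the library sizes, median centring, quantile normalization and other limits on the mean RPKM. Coordinates are from GENCODE M21 (GRCm38, the assembly of mm10). Python 3.11.15, numpy 2.4.6 and scipy 1.17.1 were used.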

Additional observations from a re-analysis of the deposited data

How the results depend on the processing

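Of 50 values under 5 alternatives of pseudocount and scaling, 37 stayed within the interval of the reads and 13 moved outside it. Itga6, near 0, changed sign, from 0.04 to as low as -0.12. The counts of members past 1.5-fold were 2 higher under all 7 alternatives, and 4 lower under 6 of them, with 3 lower at a mean of at least 5 RPKM, a limit that Itgb3 does not reach. The share of all tested genes past 1.5-fold did change. Over the same alternatives it ran from 5.73% to 11.9% for higher genes and from 6.97% to 17.0% for lower genes. At 2-fold, the number of higher members was 0 without Rn45s in the library sizes, with median centring and with quantile normalization, and the number of lower members was 1 at a mean of at least 5 RPKM. Of all tested genes, 2.51%, 2.78% and 3.65% were higher at least 2-fold in these scalings, and 2.27% were lower at that mean. The member median was -0.34 without Rn45s. The median of the pathway genes was reversed to -0.098 without Rn45s, -0.027 with median centring and -0.12 with quantile normalization; the first 2 shift all genes alike, and for the third the cause was not tested. With all genes above 0, 8 pathway genes were higher and 15 lower at least 1.5-fold, and at a mean of at least 5 RPKM 3 were lower, since more or fewer genes were tested. The level of Itgam relative to Itgal stayed within its interval under quantile normalization. Itgb3 was at -1.10 and Itgb7 at -1.84 with a pseudocount of 1. Of the members, Itgax had the fewest reads. No paired analysis was possible because the design has no replicates, and leaving out a library would leave no comparison.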

Other observations

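Some integrin pathway genes under a mean of 1 RPKM, chosen here after their values were seen, differed beyond their counting intervals. Itga1, the α subunit of a collagen receptor, gave 69 reads in NTB-GMP (1.13 RPKM) and 31 reads in 4T1-GMP (0.17 RPKM). Parvb, which encodes a parvin, a link of integrins to actin, gave 33 reads (0.87 RPKM) and 7 reads (0.06 RPKM). Another parvin gene, Parvg, was far above this limit, at 75.2 and 85.2 RPKM (log2 ratio 0.18). Genes under the limit also differed in the other direction. Fn1, which encodes fibronectin, gave 40 reads in NTB-GMP (0.47 RPKM) and 214 reads in 4T1-GMP (0.85 RPKM). Itgb2l, described above, was higher in 4T1-GMP too. Itga11, Itgb8, Fermt1 and Fermt2, which encode integrin subunits and kindlins of other tissues, were listed at 0 in both libraries.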
